A study of Homo sapiens with 4 samples.

Results

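The 48 genes described here encode the machinery of autophagy and the kinase complexes that control it, and they are followed across 4 RNA sequencing libraries of MDA-MB-231 cells, an established human line of triple-negative breast cancer. They were taken by symbol from a fixed list, and all 48 were found among the 39259 genes of the deposited table. A pair of libraries came from wild type cells (WT), and the labels give the other 2 as cells with mdig knocked out (KO). Mdig, or MINA53, is a JmjC-domain oxygenase whose gene is RIOX2. No treatment is named for either group, and both were grown in DMEM/F-12 medium with serum. The labels do not say whether the knockout is 1 clone or a pool, how it was made, or whether the replicates were separate cultures. The p-values thus reflect the spread among these 4 libraries alone, and that spread may be technical.

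Autophagy encloses cytoplasm in a double membrane and delivers it to the lysosome. The ULK1 kinase complex starts the process, a class III phosphatidylinositol 3-kinase (PI3K) complex marks the growing membrane, and a pair of ubiquitin-like conjugation systems attach ATG8 proteins (the LC3 and GABARAP families) to lipid, where cargo receptors bind them. The kinase complex mTORC1 restrains autophagy when nutrients are plentiful, and it is recruited to the lysosome by Rag GTPases and switched on there by RHEB. The energy sensor AMPK opposes mTORC1 and can activate ULK1. In breast cancer lines autophagy is studied as a means of surviving stress. These libraries measure RNA levels only, and not autophagic flux or mTOR activity.

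The libraries held 22503981 to 52163811 fragments assigned to genes, with WT replicate 2 the shallowest, and mitochondrial transcripts took 6.54% to 7.91% of them. Levels are in FPKM, fragment counts scaled to the length of the gene and to the fragments assigned in the library. RIOX2 RNA was no lower under the KO label than in WT, at 8.60 and 8.24 FPKM in WT and 9.23 and 9.82 FPKM in the libraries labelled KO (log2 change 0.16, SE 0.060, limma adjusted p = 0.0546). Over 15 alternative ways of processing the table (the alternatives) this p ranged from 0.00846 to 0.360. The table gives 1 value per gene, so it does not show whether part of the transcript was lost, and the label of both KO libraries remains unchecked at the RNA level. Markers of mesenchymal-like breast lines were abundant, with VIM at 1999.6 to 2394 FPKM and AXL at 184 to 199.9 FPKM over the 4 libraries. The hormone receptor genes ESR1 and PGR were at or near 0, while ERBB2 (HER2) stood at 12.7 to 14.3 FPKM and GATA3, a luminal marker, at 3.49 to 4.23 FPKM. The leukocyte gene PTPRC stood at 0.121 to 0.156 FPKM and CD3E was at or near 0. Of the endothelial genes PECAM1 stood at 0.970 to 1.37 FPKM and CDH5 near 0, and of the melanocyte genes PMEL stood at 0.830 to 1.34 FPKM and MLANA was listed at 0. Of the mesenchymal markers VIM was called lower in the libraries labelled KO (limma adjusted p = 0.0154). AXL (0.398) and MSN (log2 change −0.12, 0.0851) were not called, and the other markers of this kind were called higher. GATA3 and PMEL were called lower and PECAM1 higher in the libraries labelled KO (limma adjusted p = 0.0160, 0.0168 and 0.0105). The part of these markers in the results was not tested. In RNA from bulk cultures, fewer cells of one kind and less RNA per cell cannot be told apart.

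For 46 of the 48 members the mean over the libraries reached 1 FPKM, and these were tested. Each of the 46 also had a mean above 1 FPKM in both groups separately, so none passed the filter through 1 group alone. The remaining pair were ULK2, a paralog of ULK1, with 55 to 90 fragments per library, and ATG10, the enzyme that joins ATG12 to ATG5, with 71 to 157. ULK2 measured 0.197 and 0.263 FPKM in WT and 0.141 and 0.185 FPKM in the libraries labelled KO. ATG10 measured 0.439 and 0.399 FPKM in WT and 0.373 and 0.356 FPKM in the libraries labelled KO. Throughout, values are in the order of replicate 1 and replicate 2.

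Among the tested members, 6 rose and 14 fell in the libraries labelled KO, and 26 did not pass the threshold (limma, log2(FPKM + 1) values, adjusted p under 0.05 by Benjamini and Hochberg's method over all 11716 genes tested). The 20 called members are 43.5% of those tested, against 49.9% of all tested genes. The 6 rises compare with a background of 21.6% of all genes, and the 14 falls, 30.4% of the members, with one of 28.4%. The share of called members was thus near the background of this comparison. The counts per subgroup below compare with the same 21.6% of all genes that rose and 28.4% that fell. The direction of the calls depended on scaling: after median-of-ratios scaling 11 members rose and 12 fell, and with voom on the fragment counts 11 rose and 13 fell, while the share of higher calls over all genes went from 43.2% to 55.2% and 51.3%. Single libraries also moved the counts, to 10 rises and 15 falls without WT replicate 1, 4 and 9 without KO replicate 1, and 3 and 8 without KO replicate 2. The median of all genes lay at −0.041 as deposited, at 0.014 after median-of-ratios scaling and at −0.0035 with voom. The median log2 change was −0.03 over the members and −0.04 over all tested genes, and the median absolute change was 0.15 and 0.18. In 33 of the 46 tested members the values of the 2 groups did not overlap, against 77.5% of all tested genes.

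**Figure D1:**
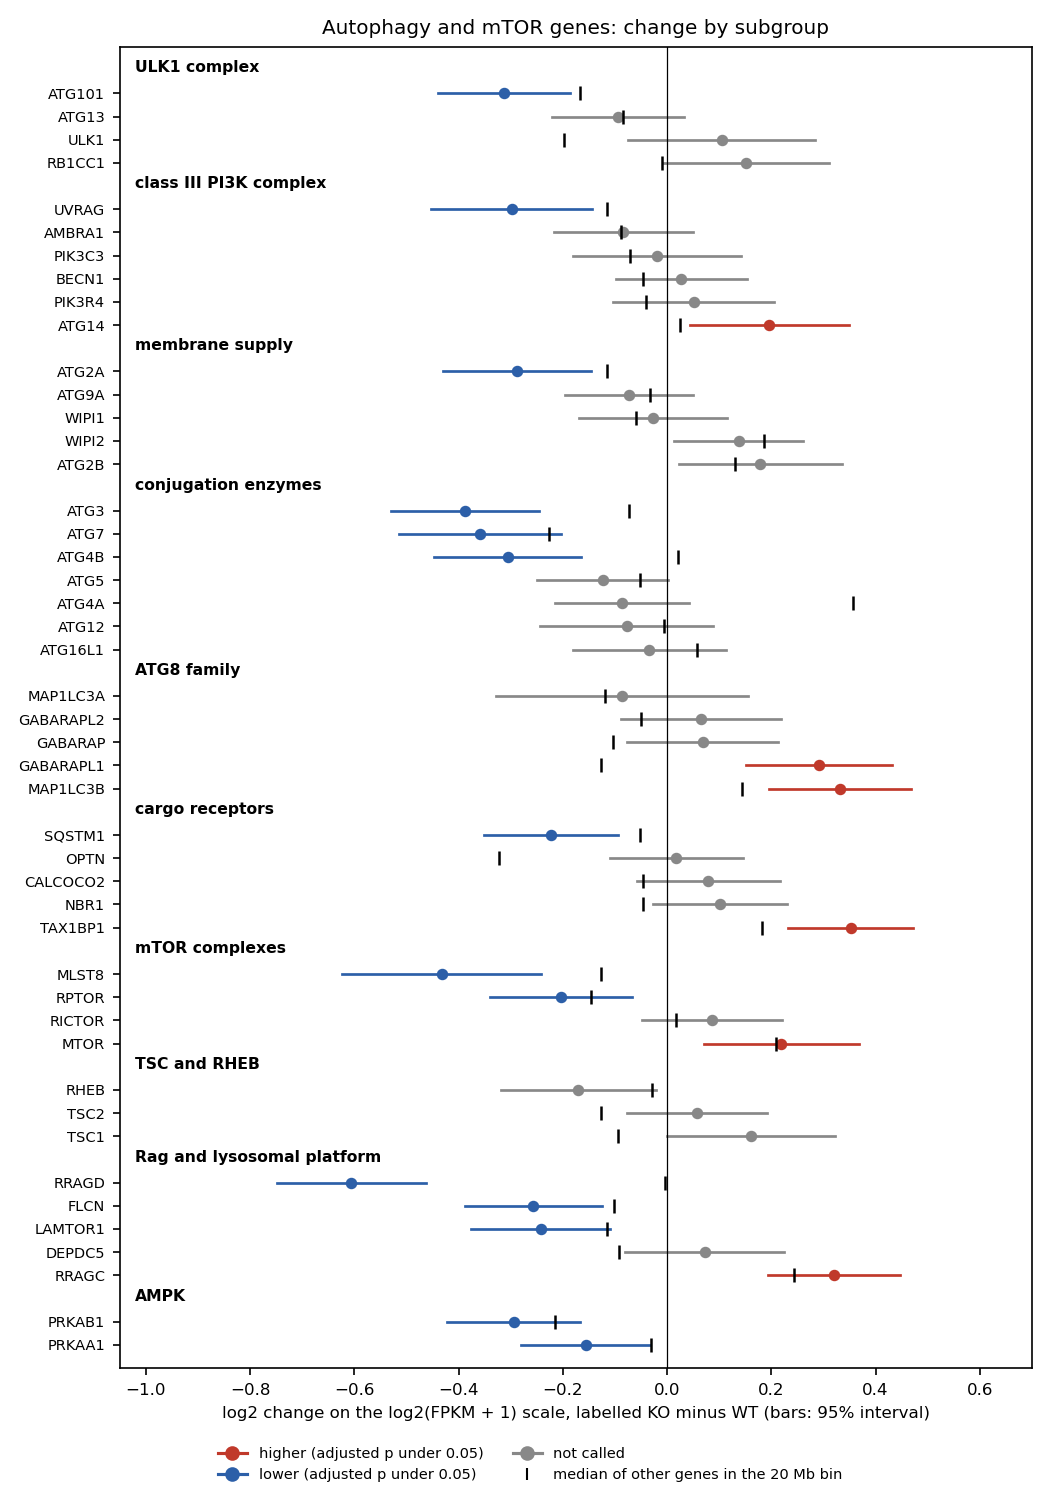
Log2 change on the log2(FPKM + 1) scale (x axis, libraries labelled KO minus WT, n = 2 each) for the 46 tested members, grouped by role (y axis), with 95% intervals as bars, calls in red and blue, and a black tick for the median change of the other tested genes in the same 20 Mb stretch of chromosome. The estimates run from −0.61 for RRAGD to 0.35 for TAX1BP1.

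The promoters of 5 members hold the E-box CACGTG, the core of the element through which the lysosomal transcription factors TFEB and TFE3 are known to act, and 4 of those genes were called in the comparison. They are shown because the calls go both ways. Of all tested genes 49.9% were called, and the share called among tested genes with this E-box was not counted. The calls also depended on neighbouring genes. With the median change of the neighbours on the chromosome subtracted, ATG14, RRAGC and LAMTOR1 were not called (limma adjusted p = 0.0797, 0.251 and 0.0700). In the same fit ATG3 kept its call (0.0139) and TSC2 was called higher (0.0345). Sequences are from RefSeq on GRCh38.p14, read 5′ to 3′ on the strand of the gene, from before the start site, with matches to the searched motifs in capitals. The stretches lie at chr3:112561963-112561992 (minus strand) for ATG3, chr11:72103410-72103509 (minus strand) for LAMTOR1, chr14:55411831-55411930 (minus strand) for ATG14, chr1:38859832-38859931 (minus strand) for RRAGC and chr16:2047859-2047888 (plus strand) for TSC2. Those of ATG3 and TSC2 are limited to 30 bases, and that of TSC2 lies within an exon of the deposited gene model.
ATG3 (fell): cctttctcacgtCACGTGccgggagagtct
LAMTOR1 (fell): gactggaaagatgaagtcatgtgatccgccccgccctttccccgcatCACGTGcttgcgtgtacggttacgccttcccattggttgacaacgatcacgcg
ATG14 (rose): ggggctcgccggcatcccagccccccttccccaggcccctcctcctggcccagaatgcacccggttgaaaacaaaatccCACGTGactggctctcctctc
RRAGC (rose): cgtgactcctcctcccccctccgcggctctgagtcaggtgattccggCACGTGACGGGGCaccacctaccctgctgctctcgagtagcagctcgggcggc
TSC2 (not called): atgcgGCCCCGTCACGTGATGCAAggatcg

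A promoter of 250 bases before to 50 bases after the start was matched for 43 members. CACGTG was found in 5 of these (11.6%), against 10.5% of the promoters of all tested genes and 7.43% of all promoters of that length. ATG3 holds it at 18 bases before the start and again after the start. The core of the antioxidant response element, TGACNNNGC, was searched on both strands and found in 7 members (16.3%, against 15.5% of tested genes), among them MAP1LC3B, ATG101 and PRKAA1. In RRAGC and TSC2 it overlaps the E-box. The core of the element bound by ATF4, TGATGNAA, was found in 1 member (TSC2, overlapping the E-box) and the FOXO element GTAAACA in 1 (CALCOCO2), against 1.61% and 2.25% of tested genes. The shares in members lay near those in all tested genes for CACGTG and TGACNNNGC, and a match is a description and not a site.

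Of the 10 tested initiation genes 1 rose and 2 fell. Of the 4 tested members of the ULK1 complex, 1 fell and 0 rose, and of the 6 members of the class III PI3K complex 1 rose and 1 fell. ATG101, which stabilises ATG13 within the ULK1 complex, was the most abundant of the first group and measured 29.2 and 30.2 FPKM in WT and 23.2 and 24.3 FPKM in the libraries labelled KO. Both libraries labelled KO lay below both WT libraries, and the log2 change was −0.31 (SE 0.055, adjusted p = 0.00227). The kinase ULK1 measured 8.35 and 9.28 FPKM in WT and 10.2 and 8.93 FPKM in the libraries labelled KO, so the groups overlapped (log2 change 0.10, 95% interval −0.075 to 0.28). For RB1CC1 (FIP200), the scaffold of the complex, the change was 0.15 (95% interval −0.0074 to 0.31), and for ATG13 it was −0.094 (−0.22 to 0.032). Neither passed the threshold.

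In the PI3K complex, BECN1 (Beclin 1), its regulatory core, was the most abundant member and measured 35.4 and 33.9 FPKM in WT and 34.7 and 35.9 FPKM in the libraries labelled KO. Its groups overlapped, with a log2 change of 0.027 (95% interval −0.10 to 0.15). The complexes that contain Beclin 1 differ by one subunit, which is ATG14 in the complex that starts autophagosomes and UVRAG in the one that acts on endosomes and late autophagosomes. ATG14 measured 5.83 and 5.20 FPKM in WT and 6.36 and 6.55 FPKM in the libraries labelled KO and rose by 0.20 (SE 0.066, adjusted p = 0.0384). UVRAG measured 4.15 and 3.78 FPKM in WT and 2.92 and 3.15 FPKM in the libraries labelled KO and fell by 0.30 (SE 0.067, adjusted p = 0.00692). The rise of ATG14 was lost without WT replicate 2 (adjusted p = 0.110), KO replicate 1 (0.134) or KO replicate 2 (0.215), and the fall of UVRAG without KO replicate 1 (0.0783). Over the alternatives the adjusted p ranged from 3.55e-04 to 0.215 for ATG14 and from 4.56e-06 to 0.0943 for UVRAG. The lipid kinase PIK3C3 (VPS34), its partner PIK3R4 (VPS15) and AMBRA1, which links Beclin 1 to ULK1, had changes of −0.019, 0.051 and −0.084 and did not pass.

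Of the 5 members that supply membrane, 1 fell and 0 rose. ATG2A, which transfers lipid into the growing membrane, measured 15.1 and 15.5 FPKM in WT and 12.9 and 11.8 FPKM in the libraries labelled KO (log2 change −0.29, SE 0.062, adjusted p = 0.00564). Its paralog ATG2B measured 3.35 and 3.09 FPKM in WT and 3.59 and 3.97 FPKM in the libraries labelled KO, a change of 0.18 that did not pass (95% interval 0.022 to 0.33, adjusted p = 0.0583). The estimates of the 2 paralogs have opposite signs, and the difference between them was not tested. The fall of ATG2A was lost without KO replicate 2 (adjusted p = 0.0779; 2.27e-05 to 0.0779 over the alternatives). The scramblase ATG9A, the most abundant of this group, measured 27.9 and 27.9 FPKM in WT and 27.0 and 25.9 FPKM in the libraries labelled KO (95% interval of the change −0.20 to 0.049). The phosphoinositide-binding proteins WIPI1 and WIPI2 had changes of −0.027 and 0.14 and did not pass. With voom on fragments, WIPI2 (adjusted p = 0.0130) and ATG2B (0.00530) were called higher.

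All 7 tested conjugation enzymes had a negative log2 change, and 3 of them (42.9%) fell while 0 rose. Over all tested genes 56.2% had a negative change and 28.4% fell. After median-of-ratios scaling 6 of the 7 estimates were negative and 3 fell, and the counts were the same when WT replicate 1 was left out. ATG3, the E2-like enzyme that transfers ATG8 proteins to lipid, measured 23.4 and 25.3 FPKM in WT and 17.8 and 18.9 FPKM in the libraries labelled KO (log2 change −0.39, SE 0.061, adjusted p = 0.00138). Its WT libraries were the 2 highest, and it kept its call in each of the 15 alternatives. ATG7, the E1-like enzyme that activates both ATG8 and ATG12, measured 3.19 and 3.54 FPKM in WT and 2.48 and 2.32 FPKM in the libraries labelled KO (−0.36, adjusted p = 0.00305). ATG4B, the main protease that primes ATG8 proteins and removes them from lipid, measured 12.9 and 14.0 FPKM in WT and 10.8 and 10.5 FPKM in the libraries labelled KO (−0.31, SE 0.061, adjusted p = 0.00417), and it too kept its call in each alternative.

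The exons of ATG7 share 17.0% of their bases with VGLL4 and those of ATG3 share 5.27% with SLC35A5, both on the opposite strand. Because the strand setting of the counting is not given in the sources used here, reads from these pairs may not be separable. ATG5 and ATG12 form the conjugate that directs lipidation. ATG5 measured 11.5 and 11.7 FPKM in WT and 10.7 and 10.5 FPKM in the libraries labelled KO. ATG12 measured 11.3 and 12.6 FPKM in WT and 10.7 and 11.8 FPKM in the libraries labelled KO, and its groups overlapped. Their changes were −0.12 (95% interval −0.25 to 0.0013) and −0.077 (−0.24 to 0.089), and neither passed. ATG16L1, which brings that conjugate to the membrane, and ATG4A, a paralog of ATG4B, had changes of −0.034 and −0.087 and were not called either.

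Within the ATG8 family 2 of 5 members rose and 0 fell. MAP1LC3B (LC3B), the member most used as a marker of autophagosomes, measured 36.6 and 39.6 FPKM in WT and 47.2 and 49.2 FPKM in the libraries labelled KO and rose by 0.33 (SE 0.059, adjusted p = 0.00238), a ratio of mean FPKM of 1.27. Both libraries labelled KO were above both WT libraries, and the call held in each of the 15 alternatives. The other genes of its stretch of chromosome 16 had a median of 0.14, and with it subtracted the change of MAP1LC3B was 0.18 (adjusted p = 0.0286). GABARAPL1 measured 10.2 and 10.1 FPKM in WT and 12.1 and 13.1 FPKM in the libraries labelled KO and rose by 0.29 (SE 0.061, adjusted p = 0.00492). The other genes of its 20 Mb stretch of chromosome 12 had a median of −0.13, and with that median subtracted its change was 0.44 (adjusted p = 0.00157). Its call was lost without KO replicate 2 (adjusted p = 0.0717), the highest library, and over the alternatives the adjusted p ranged from 4.26e-05 to 0.0717.

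GABARAP, the most abundant family member, measured 99.6 and 111 FPKM in WT and 109.7 and 111 FPKM in the libraries labelled KO. KO replicates lay within the range of the WT pair, and the change was 0.068 (95% interval −0.076 to 0.21). GABARAPL2 (GATE-16) measured 19.9 and 20.9 FPKM in WT and 20.2 and 22.6 FPKM in the libraries labelled KO (0.065, −0.089 to 0.22). MAP1LC3A measured 4.0 and 5.04 FPKM in WT and 4.47 and 3.89 FPKM in the libraries labelled KO from 148 to 285 fragments (−0.086, −0.33 to 0.16). Over the alternatives the change of MAP1LC3A ranged from −0.22 to 0.049. After the trend with gene length was removed, 4 of the 5 members were called higher, against 2 as reported (the 5 genes are 974 to 2307 bp long). The near copies of these genes that could share reads were low: MAP1LC3B2 stood at 0.0937 to 0.435 FPKM over the 4 libraries, MAP1LC3C at 0.0418 to 0.252 FPKM, and GABARAPL3 was listed at 0 in all 4.

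Summed over the 5 genes, the family stood at 170.3 and 187 FPKM in WT and at 194 and 199.9 FPKM in the libraries labelled KO. MAP1LC3B made up 21.5% and 21.2% of that sum in WT, against 24.4% and 24.6% under the KO label, and GABARAP 58.5% and 59.5% against 56.6% and 55.6%. GABARAP thus remained the larger part in each library. These shares are of levels per length and were not tested.

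**Figure D2:**
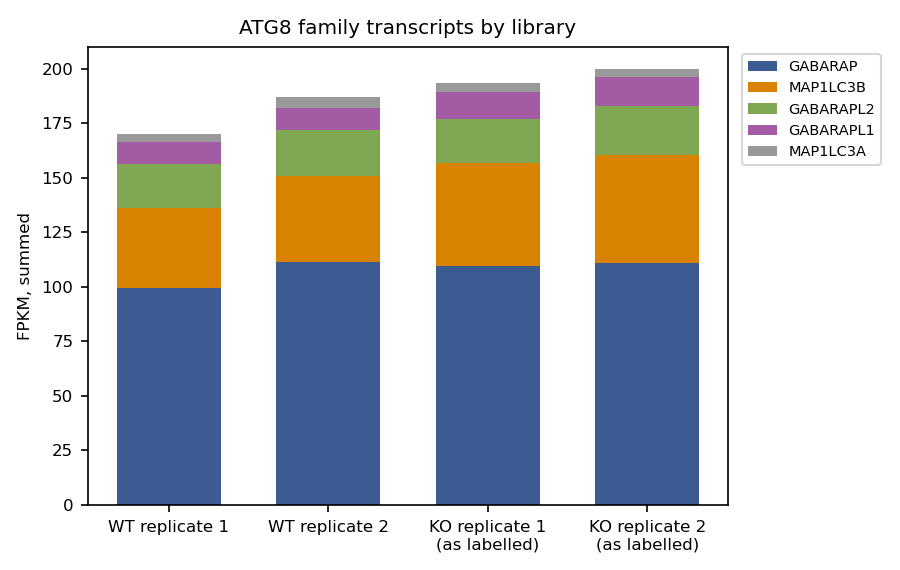
FPKM of the 5 ATG8 family genes (y axis, stacked) in each of the 4 libraries (x axis). GABARAP is the largest part of each bar, and the MAP1LC3B part is larger in both libraries labelled KO (47.2 and 49.2 FPKM) than in WT (36.6 and 39.6 FPKM).

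Of the 5 cargo receptors 1 rose and 1 fell. SQSTM1 (p62), which carries ubiquitinated proteins to autophagosomes and is itself degraded there, had the highest level of all 48 members in WT and measured 106 and 113 FPKM in WT and 95.5 and 91.9 FPKM in the libraries labelled KO. It fell by 0.22 (SE 0.056, adjusted p = 0.0113). Leaving out KO replicate 1 ended this call (adjusted p = 0.0539), as did leaving out KO replicate 2 (0.126), and over the alternatives the adjusted p ranged from 2.18e-05 to 0.126. Its exons share 18.7% of their bases with MRNIP and 3.22% with MGAT4B on the opposite strand. TAX1BP1, a receptor that also takes part in clearing protein aggregates, measured 37.2 and 36.8 FPKM in WT and 46.6 and 48.5 FPKM in the libraries labelled KO and rose by 0.35 (SE 0.052, adjusted p = 9.98e-04), the largest rise among the members. The median of the other genes in its stretch of chromosome 7 was 0.18, and with that subtracted the change was 0.18 (adjusted p = 0.0216, the highest over its alternatives).

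NBR1, a receptor related to SQSTM1, measured 30.7 and 28.8 FPKM in WT and 31.6 and 32.4 FPKM in the libraries labelled KO (0.10, 95% interval −0.027 to 0.23). CALCOCO2 (NDP52), which recognises bacteria and damaged mitochondria, measured 25.5 and 24.6 FPKM in WT and 25.5 and 27.6 FPKM in the libraries labelled KO (0.079, −0.058 to 0.22). OPTN (optineurin), with a similar role, measured 37.2 and 35.2 FPKM in WT and 35.9 and 37.4 FPKM in the libraries labelled KO (0.018, −0.11 to 0.15). None of the 3 passed as reported, but NBR1 was called higher with voom on fragments (adjusted p = 0.0395). OPTN was flat in a stretch of chromosome 10 whose other genes had a median of −0.32, and relative to them it was higher by 0.33 (adjusted p = 0.00276, range over the alternatives 0.00276 to 0.944). The ratio of MAP1LC3B to SQSTM1 in FPKM was 0.345 and 0.351 in WT, against 0.495 and 0.535 under the KO label, and that of TAX1BP1 to SQSTM1 was 0.351 and 0.326 against 0.488 and 0.528. These ratios describe the calls above and add no test.

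Among the 14 regulators of mTOR, 2 rose and 7 fell, and 13 had groups that did not overlap, against 77.5% of all tested genes. The share called was 64.3%, against 49.9% of all tested genes, but it rested on both KO libraries. Without KO replicate 1, 1 rose and 4 fell (35.7% called, against 32.4% of all genes), and without KO replicate 2, 1 rose and 3 fell (28.6%, against 30.2%). Under median-of-ratios scaling 3 rose and 5 fell (57.1% called, against 47.8% of all genes). With no filter on low values 1 rose and 4 fell (35.7%, against 19.0%). With the medians of the stretches subtracted 2 rose and 3 fell (35.7%, against 40.8%), and with a filter at 5 FPKM the share was 75.0%, against 53.7%. In the mTOR complexes, the kinase MTOR itself measured 11.1 and 10.1 FPKM in WT and 12.3 and 12.7 FPKM in the libraries labelled KO and rose by 0.22 (SE 0.064, adjusted p = 0.0223). The other genes of its stretch of chromosome 1 had a median of 0.21, and with it subtracted the change was 0.022 (adjusted p = 0.821). MLST8, a subunit of both mTOR complexes, measured 13.6 and 15.7 FPKM in WT and 11.2 and 9.98 FPKM in the libraries labelled KO and fell by 0.43 (SE 0.082, adjusted p = 0.00376), with a call that held in each alternative. With the median of its stretch of chromosome 16 (−0.13) subtracted, the change of MLST8 was −0.29 (adjusted p = 0.0132). The exons of MLST8 share 5.02% of their bases with BRICD5 on the opposite strand.

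RPTOR (raptor), which defines mTORC1 and binds its substrates, measured 12.8 and 12.5 FPKM in WT and 11.2 and 10.5 FPKM in the libraries labelled KO and fell by 0.20 (adjusted p = 0.0209). RICTOR, which defines mTORC2, measured 9.18 and 8.84 FPKM in WT and 9.38 and 9.89 FPKM in the libraries labelled KO and did not pass (0.087, 95% interval −0.048 to 0.22). Whether RPTOR and RICTOR differ in their change was not tested. The calls of MTOR and RPTOR did not survive leaving out KO replicate 1 (adjusted p = 0.0770 and 0.0562) or KO replicate 2 (0.156 and 0.213), and over the alternatives their adjusted p ranged from 9.70e-05 to 0.821 and from 0.00306 to 0.456. The ratio of MTOR to MLST8 in FPKM was 0.820 and 0.643 in WT, against 1.10 and 1.28 under the KO label.

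None of the 3 genes TSC1, TSC2 and RHEB was called in limma as reported, although 2 of them had an unadjusted p under 0.05. RHEB, the small GTPase that switches on mTORC1, was the most abundant of them and measured 64.1 and 72.0 FPKM in WT and 60.02 and 60.5 FPKM in the libraries labelled KO (−0.17, 95% interval −0.32 to −0.022, adjusted p = 0.0574). TSC1 and TSC2 together hold RHEB inactive. TSC1 measured 7.59 and 6.81 FPKM in WT and 7.83 and 8.51 FPKM in the libraries labelled KO (0.16, adjusted p = 0.0875) and TSC2 measured 12.9 and 12.5 FPKM in WT and 13.7 and 12.8 FPKM in the libraries labelled KO (0.057, −0.077 to 0.19). TSC1 was called higher with voom on fragments (adjusted p = 0.0140) and in 4 other alternatives, RHEB was called lower in 3 and TSC2 higher in 1.

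**Figure D3:**
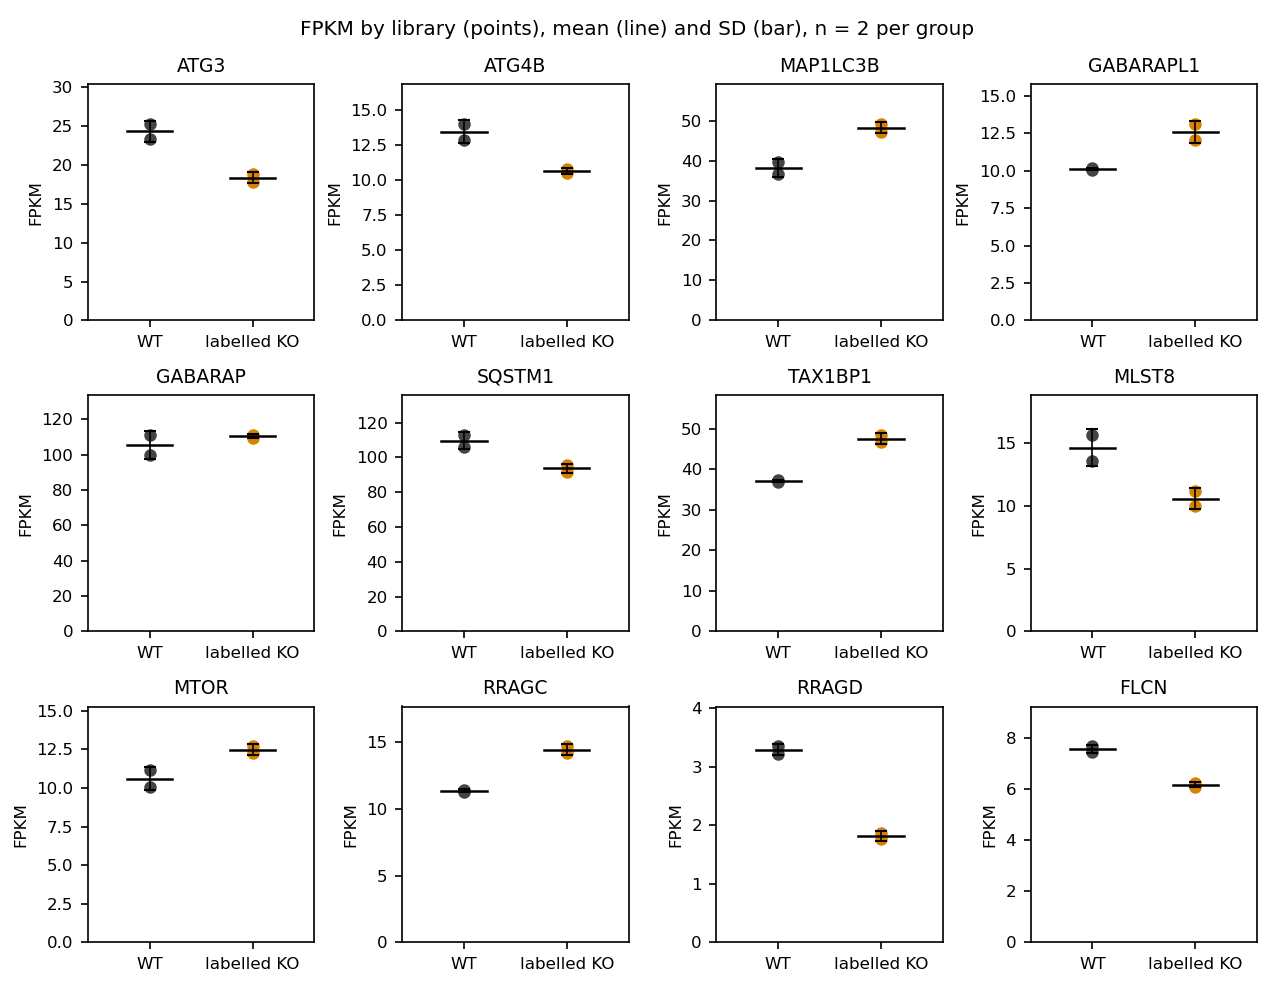
FPKM (y axis, from 0) of 12 members in each library (points; x axis, WT and labelled KO), with the mean as a line and the SD as a bar (n = 2 per group). RRAGD, FLCN, MLST8, ATG3, ATG4B and SQSTM1 are lower and MAP1LC3B, GABARAPL1, TAX1BP1, MTOR and RRAGC higher in both libraries labelled KO, while the GABARAP points overlap.

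The Rag and lysosomal platform held the largest change of the 46 members. Of its 5 genes 1 rose and 3 fell (80.0% called, against 49.9% of all tested genes). RRAGD, a Rag GTPase that pairs with RRAGA or RRAGB on the lysosome, measured 3.22 and 3.36 FPKM in WT and 1.76 and 1.88 FPKM in the libraries labelled KO, from 372 to 717 fragments. It fell by 0.61 (SE 0.062, adjusted p = 1.88e-04), a ratio of mean FPKM of 0.553, and a larger absolute change than in 93.5% of all tested genes. The median of its stretch of chromosome 6 was near 0, and the call held in each of the 14 alternatives that tested it. RRAGC, its paralog with the same partners, measured 11.4 and 11.3 FPKM in WT and 14.1 and 14.7 FPKM in the libraries labelled KO and rose by 0.32 (SE 0.055, adjusted p = 0.00204).

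In the stretch of chromosome 1 that holds RRAGC the other genes had a median of 0.24, and with it subtracted the change of RRAGC was 0.075 (adjusted p = 0.251, range over the alternatives 5.68e-06 to 0.251). The level of RRAGC was 3.54 and 3.36 times that of RRAGD in WT, against 8.02 and 7.83 times under the KO label, in FPKM. Thus the paralog that was higher in WT was also the one that rose. LAMTOR1, which anchors the Ragulator complex to the lysosome, was the most abundant gene of this group and measured 78.2 and 84.8 FPKM in WT and 69.6 and 67.6 FPKM in the libraries labelled KO (−0.24, SE 0.058, adjusted p = 0.00935). FLCN (folliculin), an activating protein for RRAGC and RRAGD, measured 7.46 and 7.70 FPKM in WT and 6.11 and 6.26 FPKM in the libraries labelled KO (−0.26, SE 0.057, adjusted p = 0.00673). DEPDC5, a subunit of the GATOR1 complex that inactivates RRAGA and RRAGB, measured 1.70 and 1.52 FPKM in WT and 1.75 and 1.73 FPKM in the libraries labelled KO and did not pass (0.072, 95% interval −0.080 to 0.22). The fall of LAMTOR1 was lost without KO replicate 2 (adjusted p = 0.0908; 2.09e-06 to 0.0908 over the alternatives), and that of FLCN without KO replicate 1 (0.0743) or KO replicate 2 (0.0513; 1.84e-04 to 0.0743).

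Both AMPK subunits in the list fell, where 28.4% of all tested genes fell. PRKAB1, the regulatory beta-1 subunit, measured 10.5 and 10.6 FPKM in WT and 8.31 and 8.52 FPKM in the libraries labelled KO (−0.29, SE 0.055, adjusted p = 0.00301). PRKAA1, the catalytic alpha-1 subunit, measured 19.1 and 18.4 FPKM in WT and 16.6 and 16.8 FPKM in the libraries labelled KO (−0.16, SE 0.054, adjusted p = 0.0414). The call of PRKAA1 held in 5 of 15 alternatives. It was lost without WT replicate 1 (adjusted p = 0.0829), KO replicate 1 (0.239) or KO replicate 2 (0.184), and over the alternatives its adjusted p ranged from 0.00565 to 0.239.

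Each member was also read against its neighbours on the chromosome. Of the 46 tested members, 22 lay in a 20 Mb stretch whose other tested genes had a median log2 change of at least 0.1 in size. Of these 22, 14 were called, 13 in the direction of their stretch and 1, GABARAPL1, against it. The same counts were not made over all tested genes, so they do not mark the members out. With the median of the stretch subtracted, 7 members rose and 8 fell (32.6% called, against 40.8% of all genes), and 10 of the 20 calls were lost. The lost calls were those of ATG101 (adjusted p = 0.0566), UVRAG (0.0943), ATG14 (0.0797), ATG7 (0.104), LAMTOR1 (0.0700), RRAGC, MTOR, RPTOR (0.456), PRKAA1 (0.0616) and PRKAB1 (0.164). ATG7 (median of its stretch −0.23), PRKAB1 (−0.21) and ATG101 (−0.17) each lay in a stretch that was lower as a whole. ATG4A, in a stretch of chromosome X with a median of 0.36, was lower relative to its neighbours by 0.45 (adjusted p = 0.00104; 0.00104 to 0.653 over the alternatives) although it was not called as reported. With no filter on low values 6 calls were lost, those of ATG14, LAMTOR1, MTOR, PRKAA1, RPTOR and SQSTM1, within the ranges given for each.

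Across all 15 alternatives 6 of the 20 calls were kept wherever the gene was tested: TAX1BP1 and MAP1LC3B as rises, and RRAGD, MLST8, ATG3 and ATG4B as falls. None of the 20 called members changed sign in any alternative. These 6 genes come from 5 of the 10 subgroups: the conjugation enzymes, the ATG8 family, the cargo receptors, the mTOR complexes and the Rag platform. The share of calls kept in this way was not counted over all tested genes, so whether 6 of 20 is usual is not known.

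**Figure D4:**
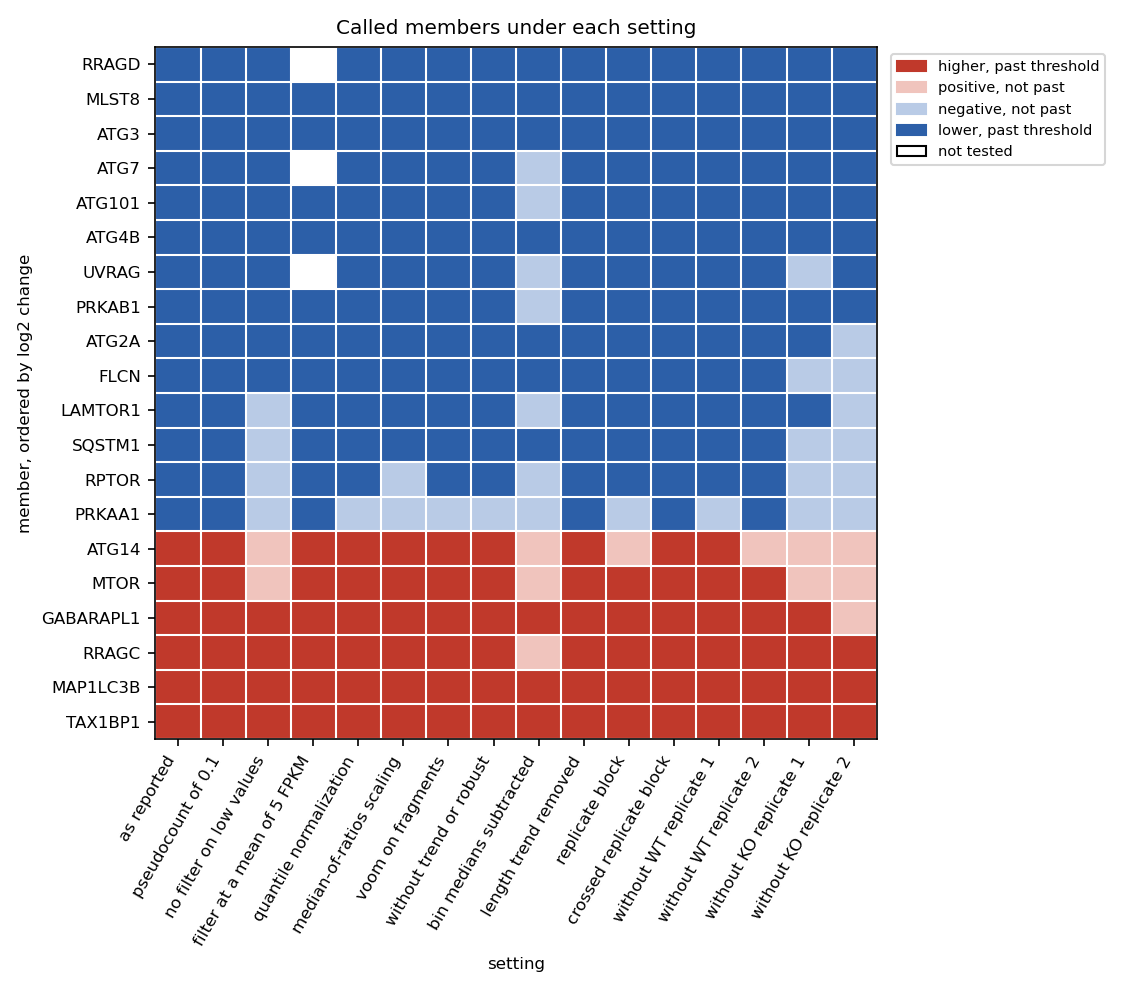
Calls of the 20 called members (y axis, ordered by log2 change) under the reported analysis and 15 alternatives (x axis), with dark red for higher and dark blue for lower past the threshold, pale colours for the same sign not past it, and white where the gene was not tested. Rows without pale cells are RRAGD, MLST8, ATG3, ATG4B, MAP1LC3B and TAX1BP1.

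The wider pathway was described with a list of 95 further genes, of which 82 were tested. Of these 25 rose and 16 fell (41 called, in a background of 49.9% of all tested genes), with 31 and 9 after median-of-ratios scaling and 20 and 9 with the medians of the stretches subtracted. Without KO replicate 1 the counts were 20 and 10, and without KO replicate 2 they were 18 and 7. Their median log2 change was −0.01. Rises thus outnumbered falls among the calls of this list, although 45 of the 82 estimates were negative. With a filter at 5 FPKM the excess was small, at 16 rises and 15 falls. Among the 46 members falls outnumbered rises, by a small margin after median-of-ratios scaling (11 rises and 12 falls). No test was made of the difference between the lists. Calls went in both directions in each list except that of amino acid and stress inputs. The counts per list below compare with 21.6% of all tested genes that rose and 28.4% that fell.

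**Figure D5:**
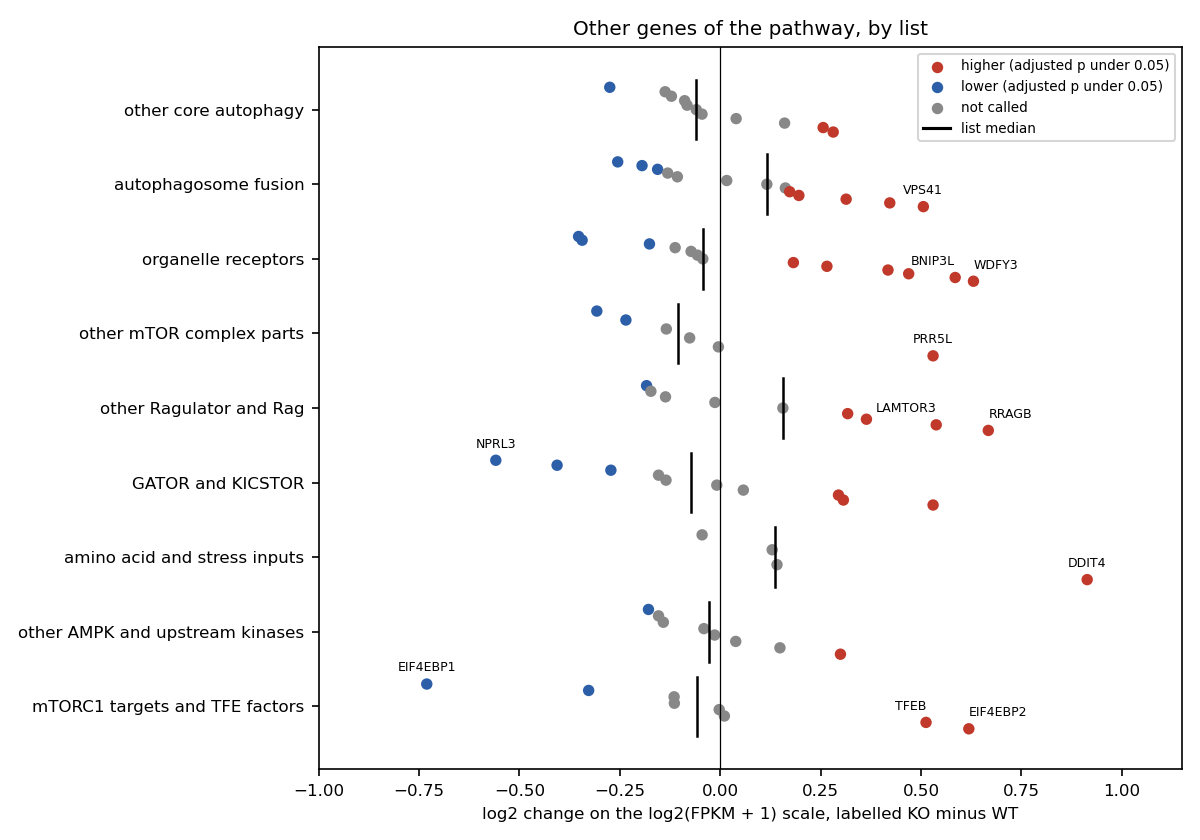
Log2 change on the log2(FPKM + 1) scale (x axis, libraries labelled KO minus WT) of 82 further tested genes of the pathway in 9 lists (y axis), with red for higher, blue for lower and grey for not called, and a black line for the list median. DDIT4 lies farthest to the right at 0.91 and EIF4EBP1 farthest to the left at −0.73.

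Upstream of mTORC1, DDIT4 (REDD1), a stress-induced inhibitor that acts through the TSC complex, measured 32.2 and 34.6 FPKM in WT and 64.1 and 63.4 FPKM in the libraries labelled KO and rose by 0.91 (SE 0.056, adjusted p = 1.76e-05). The median of its stretch of chromosome 10 was 0.35, and the change with it subtracted was 0.57 (adjusted p = 6.28e-04). It was the 1 called gene of the 4 tested amino acid and stress inputs. Among the Rag GTPases, RRAGB, an alternative partner of RRAGC and RRAGD, measured 1.2 and 1.26 FPKM in WT and 2.57 and 2.51 FPKM in the libraries labelled KO and rose by 0.67 on the log2(FPKM + 1) scale (ratio of mean FPKM 2.07; log2 change 1.10 with voom), while its more abundant paralog RRAGA measured 37.2 and 40.4 FPKM in WT and 37.8 and 39.0 FPKM in the libraries labelled KO and overlapped (−0.013). Of the 9 further Ragulator and Rag genes 4 rose and 1 fell. The Ragulator subunit LAMTOR3 rose by 0.54 in a chromosome 4 stretch with a median of 0.27. The subunit LAMTOR2 rose as well, and both calls were kept in each alternative that tested the gene. LAMTOR5 fell by 0.18, and the member LAMTOR1 had fallen by 0.24. LAMTOR5 was not called when KO replicate 1 (0.161) or KO replicate 2 (0.112) was left out (adjusted p, 0.00235 to 0.260 over the alternatives).

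Of the 10 tested genes of the GATOR and KICSTOR complexes 3 rose and 3 fell. NPRL3, which forms GATOR1 with DEPDC5 and NPRL2, measured 19.3 and 20.3 FPKM in WT and 13.9 and 12.4 FPKM in the libraries labelled KO and fell by 0.56 (adjusted p = 3.95e-04), and SEH1L, a GATOR2 subunit shared with the nuclear pore, fell by 0.41. The GATOR2 subunit WDR59 rose by 0.31. The call of WDR59 was lost without KO replicate 2 (adjusted p = 0.0858; 2.63e-06 to 0.0858 over the alternatives). Of the 6 further mTOR complex genes 1 rose and 2 fell: PRR5L, a subunit of mTORC2, measured 2.71 and 2.70 FPKM in WT and 4.43 and 4.27 FPKM in the libraries labelled KO and rose by 0.53. TELO2, which helps assemble mTOR, and AKT1S1 (PRAS40), an mTORC1 inhibitor, fell by 0.31 and 0.23, with calls lost without KO replicate 2 (adjusted p = 0.114 and 0.210; 2.23e-08 to 0.114 and 1.57e-05 to 0.210 over the alternatives). Of the 8 further AMPK genes and upstream kinases, the gamma-2 subunit PRKAG2 rose by 0.30 and the kinase CAMKK2 fell by 0.18. CAMKK2 was not called when KO replicate 1 (adjusted p = 0.177) or KO replicate 2 was left out (0.164; 0.00629 to 0.881 over the alternatives).

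Downstream of mTORC1, 2 of 8 genes rose and 2 fell. The translation repressors that mTORC1 inactivates went opposite ways: EIF4EBP1 (4E-BP1) measured 65.4 and 77.4 FPKM in WT and 45.6 and 39.5 FPKM in the libraries labelled KO and fell by 0.73 (SE 0.10, adjusted p = 0.00192), and EIF4EBP2 measured 11.3 and 10.1 FPKM in WT and 16.4 and 17.5 FPKM in the libraries labelled KO and rose by 0.62 (SE 0.068, adjusted p = 2.51e-04). EIF4EBP2 lies in the stretch of DDIT4 (median 0.35), and both calls held in each alternative. TFEB, the transcription factor for lysosome and autophagy genes that mTORC1 keeps out of the nucleus, measured 1.39 and 1.46 FPKM in WT and 2.60 and 2.33 FPKM in the libraries labelled KO and rose by 0.51 (adjusted p = 5.81e-04; ratio of mean FPKM 1.73, log2 change 0.84 with voom). Its relatives TFE3 (20.7 and 21.7 FPKM in WT and 21.9 and 20.8 FPKM in the libraries labelled KO) and MITF (5.12 and 4.73 FPKM in WT and 3.76 and 3.68 FPKM in the libraries labelled KO) had log2 changes of 0.010, not called, and −0.33, a fall that was lost with the median of its stretch subtracted (adjusted p = 0.222; 7.53e-07 to 0.222 over the alternatives).

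At the late steps of autophagy, 5 of 13 genes for fusion with the lysosome rose and 3 fell (61.5% called, against 49.9% of all tested genes). The tethering subunits VPS41 (6.90 and 6.18 FPKM in WT and 9.26 and 10.2 FPKM in the libraries labelled KO) and VPS39 rose by 0.51 and 0.42. The latter lay in a chromosome 15 stretch with a median of 0.36, and was not called with it subtracted (adjusted p = 0.417; 3.34e-09 to 0.417 over the alternatives). The late endosomal GTPase RAB7A measured 84.6 and 86.2 FPKM in WT and 72.5 and 70.3 FPKM in the libraries labelled KO and fell by 0.26. It was not called when KO replicate 2 was left out (adjusted p = 0.0644; 2.30e-05 to 0.0644 over the alternatives). PLEKHM1, an adaptor for RAB7A, fell by 0.19, lost without WT replicate 1 (adjusted p = 0.133), KO replicate 1 (0.121) or KO replicate 2 (0.241; 3.00e-04 to 0.241 over the alternatives).

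Among receptors for organelles and other selective cargo 6 of 13 rose and 3 fell (69.2% called, against 49.9% of all tested genes). BNIP3L (NIX), a mitophagy receptor, measured 26.6 and 26.1 FPKM in WT and 39.7 and 40.5 FPKM in the libraries labelled KO and rose by 0.59 (SE 0.052, adjusted p = 9.92e-05), while its paralog BNIP3 measured 122 and 128 FPKM in WT and 116 and 122 FPKM in the libraries labelled KO and was not called (−0.073). WDFY3 (ALFY), a scaffold for aggregate clearance, measured 6.63 and 5.35 FPKM in WT and 9.39 and 10.2 FPKM in the libraries labelled KO and rose by 0.63, in the same stretch of chromosome 4 as LAMTOR3. TEX264, a receptor for the endoplasmic reticulum, and TOLLIP, a receptor for ubiquitinated proteins, fell by 0.35 and 0.34. That of TEX264 was lost with the median of its stretch subtracted (adjusted p = 0.0923; 3.44e-08 to 0.0923 over the alternatives). Of 11 other core genes 2 rose and 1 fell: the kinase ULK3 (0.28) and NRBF2, a subunit of the ATG14 complex (0.26), rose, and ATG4D, a paralog of ATG4B, fell by 0.28. With the medians of their stretches subtracted, the calls of ULK3, NRBF2 and ATG4D were lost (adjusted p = 0.604, 0.236 and 0.176). ULK3 and NRBF2 also did not pass without KO replicate 1, where their changes were 0.27 and 0.23. ATG4D did not pass without KO replicate 2 (change −0.20). In both of these fits fewer of all tested genes passed as well.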

How the data were processed

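Total RNA was sequenced by a company, per the labels' protocols, and STAR, Subread and DESeq2 are listed, without roles or settings, per the submitters' processing notes. The authors deposited 1 table of FPKM values for 39259 genes by Entrez ID, with gene length, per the file headers. Which build, annotation and strandedness the counting used is not given in the sources used here. FPKM times length gave whole fragments for 100% of the values above 0 (tolerance 0.001), from which depth was computed. Symbols came from RefSeq on GRCh38.p14 (37708 genes matched). Of the matched genes placed on a single chromosome, 98.4% had a deposited start or end within 1000 bp of that in the assembly. No column belonged to other samples.

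The 11716 genes whose mean reached 1 FPKM were tested with limma (version 3.58.1, R 4.3.3; trend and robust) on log2(FPKM + 1) values, KO label minus WT, and p-values were adjusted over all of them by Benjamini and Hochberg's method, with a threshold of 0.05. For low genes this scale gives changes that are too small. Libraries of 1 group were further apart than counting alone gives (chi-square over its degrees of freedom 8.23 and 5.69, against 55.1 to 73.8 across groups) and were kept separate. In fits without 1 library the lone one was assumed to vary like the other pair. Alternatives were another pseudocount (0.1), no filter or one at 5 FPKM, quantile and median-of-ratios scaling, voom with TMM on fragments, no trend, medians of 20 Mb stretches or the trend with length subtracted, leaving out each library, and a replicate block. A crossed block was added after the data were seen. The steps were tested on simulated data. Members and lists were chosen with earlier results of these data known. Genes described were, per subgroup, the called ones without overlap (up to 3) and the most abundant, all ATG8 and cargo receptor genes, and up to 2 rises and 2 falls per further list. A gene that this rule selects and 1 marker gene are not reported here.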

Additional observations from a re-analysis of the deposited data

How the results depend on the processing

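Over all alternatives no called member changed sign. As reported, 6 members rose and 14 fell. Rises numbered 11 under voom on fragments and 11 under median-of-ratios scaling, and falls numbered 8 with the medians of stretches subtracted. Without 1 library each, members counted 3 to 10 higher and 8 to 15 lower, the fewest without KO replicate 2. For the further pathway genes (25 higher, 16 lower), the higher count was 16 with a filter at 5 FPKM, and the lower count was 10 with no filter, 9 with median-of-ratios scaling and 9 with stretch medians subtracted, and 7 to 23 without 1 library (18 to 29 higher). Over all genes (2527 higher, 3323 lower) leaving out 1 library gave 1542 to 3104 higher and 1996 to 3973 lower, the fewest without KO replicate 2. The log2 change of RIOX2 (0.16) passed the threshold with a filter at 5 FPKM (0.16), quantile normalization (0.17), median-of-ratios scaling (0.22), voom (0.22), stretch medians subtracted (0.20) and without WT replicate 1 (0.19), and lay at 0.12 to 0.20 without 1 library. With stretch medians subtracted, 5 called pathway genes changed sign: NRBF2 (−0.092), CCPG1 (−0.10), FNIP2 (−0.14), VPS33A (0.037) and CAMKK2 (0.011). The cause of these shifts was not tested. The replicate numbers share no stated culture or day (correlation of the deviations of same-numbered libraries −0.22). With the replicate block 5 members rose and 13 fell, 23 and 12 pathway genes, and 2348 and 3029 of all genes. With the pairing crossed, 10 members rose and 15 fell, and the change of RIOX2 (0.16) passed. With no filter, ULK2 and ATG10 entered the test and were not called. WT replicate 2, at 22503981 fragments, limits the low genes, where 3 fragments on 1 kb are 0.133 FPKM.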

Other observations

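Several further genes of the pathway lay under the filter and entered the test only with no filter on low values. They were chosen after their values were seen. SESN3, a sestrin that restrains mTORC1 under stress, measured 0.164 and 0.0980 FPKM in WT and 0.643 and 0.673 FPKM in the libraries labelled KO, from 22 to 350 fragments (adjusted p = 0.0112 in limma with no filter). RETREG1 (FAM134B), a receptor for the endoplasmic reticulum, measured 0.449 and 0.338 FPKM in WT and 0.161 and 0.150 FPKM in the libraries labelled KO, from 33 to 88 fragments (adjusted p = 0.0465). DEPTOR, an inhibitor of both mTOR complexes, measured 0.302 and 0.242 FPKM in WT and 0.144 and 0.164 FPKM in the libraries labelled KO, from 14 to 35 fragments, and was not called (adjusted p = 0.126). The groups did not overlap for any of these 3 genes, as for most tested genes.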
